A study of Mus musculus with 21 samples.

Results

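Enzymes that conjugate or hydrolyse drugs, hormones and bile pigments were followed in whole livers of mice that lack the transcription factor Gata4 in sinusoidal endothelium. They are the UDP-glucuronosyltransferases (Ugt), the glutathione S-transferases (Gst and Mgst), the phenol and estrogen sulfotransferases (Sult1) and the carboxylesterases (Ces). Members were all rows of the expression table whose symbol begins with Ugt1, Ugt2, Ugt3, Gsta, Gstk, Gstm, Gsto, Gstp, Gstt, Gstz, Mgst, Sult1 or Ces and a digit, pseudogenes left out. This gave 63 of 25428 rows, with 16 glucuronosyltransferases, 23 glutathione transferases, 6 sulfotransferases and 18 carboxylesterases. The members were chosen by symbol, with no threshold on a value, but the families were selected on the genotype differences of these same livers, so the differences below describe the members and are not independent evidence for the families.

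The transferases among these enzymes carry out the second step of detoxification. A transferase joins glucuronic acid, glutathione or sulfate to a compound, which makes it more soluble and ready for export into bile or blood. Carboxylesterases split esters and amides, among them drugs, cholesteryl esters and triglycerides. Most are made by hepatocytes, and many lie in tandem clusters of similar genes. Ugt1 members share their downstream exons and differ in the first exon, so transcripts of neighbours in these families may share probes and single members are uncertain to that extent.

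Each array held the RNA of 1 whole liver. In the 10 livers labelled Gata4-LSEC-KO, a floxed Gata4 allele was combined with the Clec4g-icre driver, which is active in liver sinusoidal endothelial cells. The driver line is C57BL/6N-Tg(Clec4g-icre)1.1Sgoe and the floxed line is STOCK Gata4tm1.1Sad/J. The 11 control livers are labelled wt and came from siblings, and the sources used here do not say if they carried the driver or the floxed allele. The diet was labelled std for all mice, and the sources give no ages. Sample numbers fall into 2 runs, run 1 holding 5 controls and 4 knockouts and run 2 holding 6 of each. Run was a term in the main fit and was left out only in an alternative without it and in fits of a single run. In whole liver, fewer cells of a type and less RNA per cell cannot be told apart.

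Gata4 itself ran from 6.34 to 7.35 (log2) in controls and from 6.10 to 6.92 in knockout livers, so the groups overlapped and the difference of -0.19 ± 0.10 (SE) did not pass (limma, adjusted p = 0.26). The sources do not say where its probes lie relative to the deleted part, so it checks nothing. Clec4g, the endothelial gene whose sequences drive the recombinase, fell by 0.92 ± 0.23 (SE; adjusted p = 0.018), a call lost without the run term (adjusted p = 0.053). The labels give no sex. Xist, transcribed from the inactive X chromosome, lay between 10.45 and 10.97 on all 21 arrays, and the Y-linked Kdm5d, Uty and Eif2s3y at no more than 2.98. The median log2 value of an array was 3.75. No 2 arrays held identical values, and control replicates 3 and 4 and knockout replicate 6 correlated least with the mean of their group.

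Across the 63 genes, 10 were lower and 1 was higher in knockout livers at an adjusted p under 0.05 (limma, Benjamini-Hochberg over all rows). This is 15.9% lower and 1.59% higher, where over all rows 4.05% were lower and 3.28% higher. The rule for the members was written with this contrast in view, so nothing is read from the difference in shares. Tested in run 1 alone, none of the 11 passed in limma (15 members at an unadjusted p under 0.05), and in run 2 alone Ces2a, Sult1b1, Ugt2b36 and Gsta3 did not. Members outside the 11 passed as lower in run 2 alone, namely Ugt2b35, Gstt1, Ces2g, Gsto1 and Ugt2a1 (limma, adjusted p = 0.0090, 0.027, 0.022, 0.039 and 0.048). Of these, Ugt2b35, Gstt1 and Ugt2a1 had a positive difference in run 1 (0.05, 0.16 and 0.04). Carboxylesterases gave 5 of the 10 falls, Ces1g, Ces1e, Ces1d, Ces2e and Ces2a. The other falls were Sult1b1, Ugt1a6b, Ugt2b36, Gstm4 and Gsta3, and the rise was Gstp1. Sizes among the 11 ran from 0.27 to 1.18 on the log2 scale. The median difference was -0.10 over the members and -0.013 over all rows, and 42 of the 63 members had a negative difference (66.7%, against 54.9% of all rows).

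Signal strength separated the members that passed from many that did not. Of the 63, 16 had a mean below the array median of 3.75, where values can lie close to background. None of those passed in limma over both runs and 1 had an unadjusted p under 0.05, with differences from -0.19 to 0.15. Of the 47 brighter members, 10 were lower (21.3%), where 7.07% of all rows over the array median were lower, and their median difference was -0.18.

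**Figure D1:**
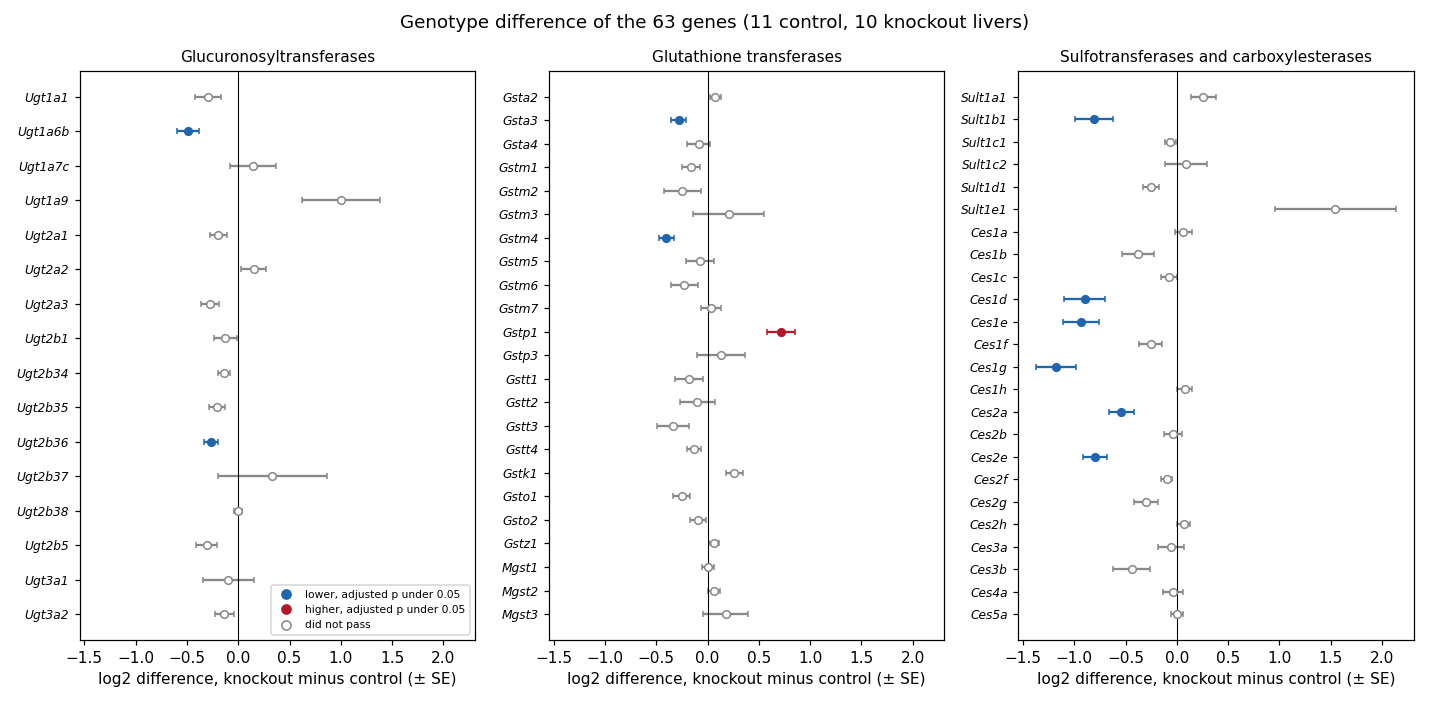
The log2 difference (knockout minus control, x axis) of each of the 63 genes (y axis), with bars of 1 SE, filled where the adjusted p was under 0.05. The 10 filled points left of zero include 5 carboxylesterases, the 1 filled point right of zero is Gstp1, and Sult1e1 and Ugt1a9 lie far to the right with wide bars.

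Carboxylesterases are serine hydrolases of the endoplasmic reticulum that cut ester drugs and stored lipids. Of the 8 Ces1 genes 3 fell, with a family median of -0.32, and of the 6 Ces2 genes 2 fell, with a median of -0.20. All 11 carboxylesterases brighter than the array median had a negative difference over both runs, where 55.6% of all rows over the array median did. Ces1c and Ces3a among them were positive in run 2 (0.047 and 0.099). The families were selected on this contrast, so nothing is read from the share.

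Ces1g, also known as Es-x, hydrolyses triglyceride and cholesteryl ester in the liver. Its log2 value had a lowest, median and highest of 9.31, 9.85 and 10.70 in controls and of 7.88, 8.74 and 9.65 in knockout livers. All but 1 control lay above the highest knockout liver, and 8 of 10 knockout livers lay below the lowest control. The fitted difference was -1.18 ± 0.19 (SE; adjusted p = 0.0015), 2.26-fold lower. By run it was -1.05 and -1.27.

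Ces1e ran from 8.72 over a median of 9.47 to 9.82 in controls and from 7.73 over 8.52 to 9.14 in knockout livers. It was below the control mean of its run in 10 of 10 knockout livers, although the ranges overlapped. Ces1e fell by 0.94 ± 0.17 (SE; adjusted p = 0.0036), or 1.91-fold, with -0.83 in run 1 and -1.02 in run 2.

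Ces1d, also called triacylglycerol hydrolase, mobilises stored triglyceride for very low density lipoprotein. Its values were 8.31, 9.30 and 9.61 (lowest, median, highest) in controls and 7.49, 8.10 and 9.23 in knockout livers. Knockout replicate 2 was the 1 knockout liver above the control mean of its run. The difference was -0.90 ± 0.20 (SE; adjusted p = 0.010), with -0.61 in run 1 and -1.11 in run 2, and without that liver it was -1.04.

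The other Ces1 genes did not pass. Ces1b had a difference of -0.38 (95% interval -0.70 to -0.05) and Ces1f of -0.26 (-0.48 to -0.03). For Ces1c, a carboxylesterase secreted into plasma, the interval was narrow (-0.23 to 0.08). Ces1a and Ces1h were below the array median. By RefSeq order the Ces1 genes stand side by side from Ces1a to Ces1h on chromosome 8, so Ces1f lies between the called neighbours Ces1e and Ces1g.

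Ces2e was the 1 called member whose groups did not overlap. Its log2 value was 8.77, 9.11 and 9.49 (lowest, median, highest) in controls and 7.69, 8.36 and 8.72 in knockout livers, so all 10 knockout livers lay below the lowest control. Such a separation was seen in 0.0393% of all rows. The difference was -0.80 ± 0.12 (SE; adjusted p = 7.29e-04), 1.74-fold lower, with -0.84 in run 1 and -0.77 in run 2. Ces2 enzymes prefer esters with a large alcohol group, such as the prodrug irinotecan.

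Ces2a, an enzyme that also hydrolyses diacylglycerol, ran from 9.64 over a median of 10.03 to 10.45 in controls and from 9.02 over 9.58 to 9.94 in knockout livers. The ranges overlapped, although every knockout liver (10 of 10) was under its run's control mean. It fell by 0.54 ± 0.12 (SE; adjusted p = 0.012), with -0.65 in run 1 and -0.46 in run 2. Ces2g differed by -0.30 (95% interval -0.54 to -0.05) without passing, and Ces2b, Ces2f and Ces2h were below the array median. Ces3b, a carboxylesterase outside the Ces1 and Ces2 families, missed the threshold at -0.44 ± 0.18 (SE; adjusted p = 0.15), with -0.84 in run 1 and -0.14 in run 2. Its neighbour Ces3a had a difference of -0.06 (-0.33 to 0.20).

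**Figure D2:**
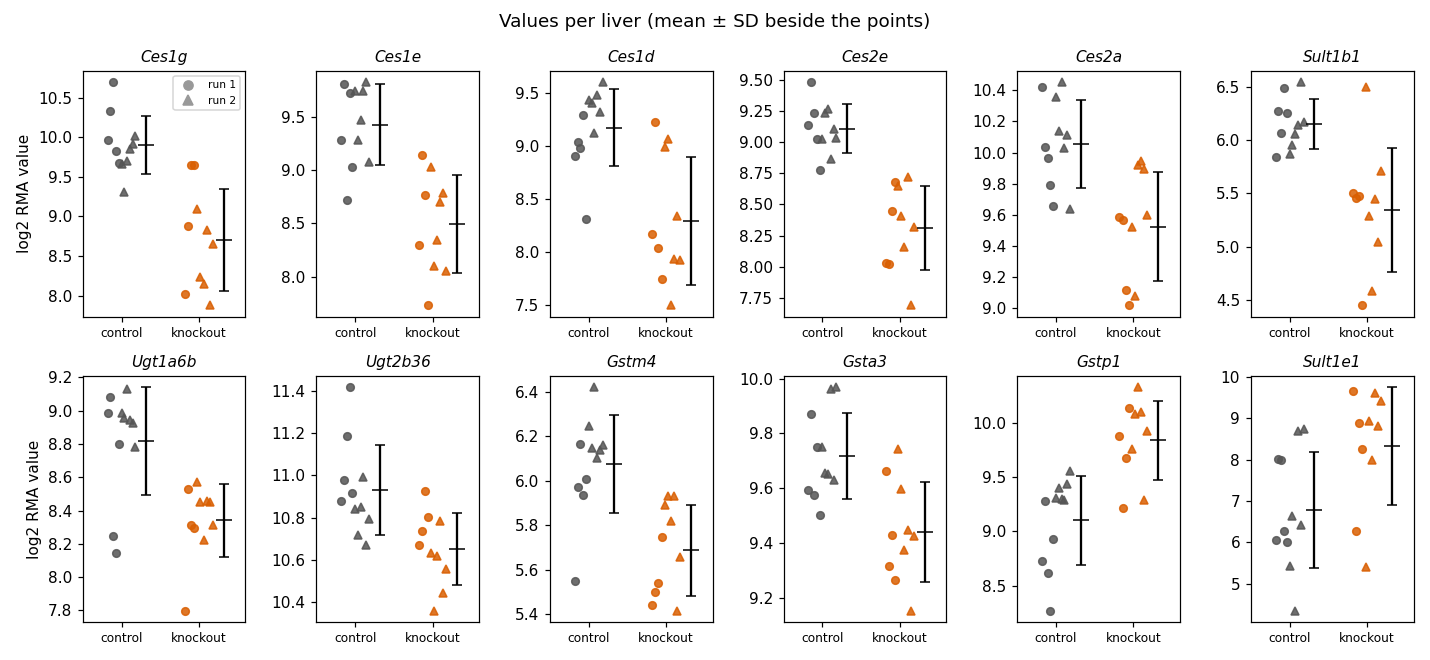
Log2 RMA value (y axis) of each liver for the 11 genes that passed and for Sult1e1, control against knockout, with circles for run 1, triangles for run 2 and the mean ± SD beside the points. The 2 groups do not overlap for Ces2e, and Sult1e1 is spread over several log2 units in both groups.

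The 5 called carboxylesterases did not all vary together from liver to liver. Deviations from the mean of each genotype and run were compared over the 21 livers for the 10 pairs among them, a measure that the genotype difference does not enter. Ces1g and Ces2e varied together (Pearson r = 0.70, permutation p = 4.00e-04, adjusted over the 10 pairs 0.004). Spearman's rho was 0.69 (permutation p = 8.50e-04, adjusted 0.0085), and r was 0.67 without the 2 livers farthest from the median of Ces1g. By run r was 0.80 and 0.62, and it was 0.82 among knockout and 0.36 among control livers. No other pair passed after adjustment. The permutations shuffled livers across genotypes and runs, whose means had been removed, so their p-values may be too small. Ces1d and Ces1e had r = 0.43 (permutation p = 0.050, adjusted 0.25) and rho = 0.42 (permutation p = 0.062, adjusted 0.31), with 0.71 in run 1 and 0.13 in run 2.

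**Figure D3:**
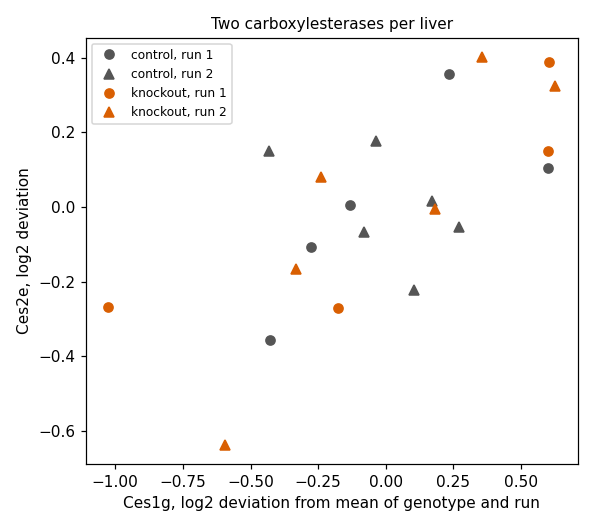
Deviation of Ces2e (y axis, log2) against that of Ces1g (x axis, log2) from the mean of each genotype and run, 1 point per liver. Livers low in one gene tend to be low in the other, with r = 0.70 over the 21 livers.

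Upstream sequence is shown for the 4 called carboxylesterases with an entry, because each was lower in knockout livers. It is also shown for Gsta3 and Gstp1, transferases described below, because they held a searched motif and moved in opposite directions. Each is the 250 bases before the start of the gene in RefSeq, build GRCm38.p6, read 5′ to 3′ on the strand of the gene, with capitals for a motif match.
Ces1g (chr8:93337210-93337459, - strand): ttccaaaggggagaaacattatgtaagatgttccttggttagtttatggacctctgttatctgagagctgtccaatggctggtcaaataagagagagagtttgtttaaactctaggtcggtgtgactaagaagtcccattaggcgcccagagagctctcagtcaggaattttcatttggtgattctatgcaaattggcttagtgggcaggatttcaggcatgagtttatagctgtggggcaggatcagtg
Ces1e (chr8:93229620-93229869, - strand): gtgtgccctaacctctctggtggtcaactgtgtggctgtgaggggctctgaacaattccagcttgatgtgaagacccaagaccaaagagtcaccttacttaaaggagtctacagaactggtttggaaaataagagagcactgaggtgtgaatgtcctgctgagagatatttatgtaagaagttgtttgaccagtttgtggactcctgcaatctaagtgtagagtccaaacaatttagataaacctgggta
Ces2e (chr8:104926010-104926259, + strand): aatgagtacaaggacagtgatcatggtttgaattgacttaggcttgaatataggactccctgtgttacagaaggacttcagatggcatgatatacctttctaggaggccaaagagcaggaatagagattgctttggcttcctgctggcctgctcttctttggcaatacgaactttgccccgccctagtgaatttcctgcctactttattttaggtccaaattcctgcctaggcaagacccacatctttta
Ces2a (chr8:104733753-104734002, + strand): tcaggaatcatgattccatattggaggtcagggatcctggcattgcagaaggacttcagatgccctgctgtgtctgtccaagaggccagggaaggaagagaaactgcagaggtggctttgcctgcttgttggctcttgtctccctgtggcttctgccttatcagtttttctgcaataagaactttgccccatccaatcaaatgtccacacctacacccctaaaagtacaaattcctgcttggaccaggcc
Gsta3 (chr1:21240335-21240584, + strand): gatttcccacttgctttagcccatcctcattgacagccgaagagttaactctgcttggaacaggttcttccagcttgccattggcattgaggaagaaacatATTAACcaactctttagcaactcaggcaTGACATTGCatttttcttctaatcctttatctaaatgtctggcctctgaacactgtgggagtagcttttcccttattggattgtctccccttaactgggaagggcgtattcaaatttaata
Gstp1 (chr19:4037913-4038162, - strand): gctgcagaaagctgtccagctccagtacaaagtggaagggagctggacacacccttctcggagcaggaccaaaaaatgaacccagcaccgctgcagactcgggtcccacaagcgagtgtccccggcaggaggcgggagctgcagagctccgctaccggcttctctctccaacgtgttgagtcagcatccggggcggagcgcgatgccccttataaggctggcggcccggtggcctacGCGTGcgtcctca

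The 4 motifs searched on both strands were TGACNNNGC, the core of the antioxidant response element, GCGTG, the core of the xenobiotic response element, GTTAAT, one arm of the HNF1 site, and the nuclear receptor direct repeat spaced by 1 base. None of the 4 carboxylesterase windows held any of these strings. In Gsta3 the capitals mark the reverse complement of GTTAAT, 149 bases before the start, and TGACATTGC, 121 bases before it. In Gstp1 they mark GCGTG 13 bases before the start. A second start listed for Sult1b1 held GCGTG 196 bases before it and did not enter the counts, which take the first entry of each gene. Of 55 members with a promoter entry, 3 held TGACNNNGC (5.45%, against 10.1% of 27025 promoters), 7 held GCGTG (12.7%, against 28.2%) and 9 held GTTAAT (16.4%, against 6.52%). The direct repeat was in none of the 55 and in 0.037% of all promoters. In a global alignment with gaps, Ces1e and Ces1g shared 51.6% of the 250 bases and Ces2a and Ces2e 60.4%. Ces1b and Ces1c, which did not pass, shared 84.4%, and the other Ces1 pairs 50.8% to 58.8%. Ces2a shared more with Ces2f, which did not pass (64.0%). Unrelated sequences were not aligned for comparison.

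Sulfotransferases transfer sulfate from PAPS to phenols, steroids and thyroid hormone. One of 6 Sult1 genes fell. Sult1b1, which acts on thyroid hormone and phenols, ran from 5.84 over a median of 6.14 to 6.54 in controls and from 4.45 over 5.45 to 6.50 in knockout livers. In 9 of 10 knockout livers it was below the lowest control, and knockout replicate 5 stood within the control range. The difference was -0.81 ± 0.18 (SE; adjusted p = 0.011), with -0.96 in run 1 and -0.70 in run 2.

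Sult1e1, the estrogen sulfotransferase, had the largest difference of the 63 genes and did not pass. Its log2 value ran from 4.35 over a median of 6.43 to 8.75 in controls and from 5.42 over 8.86 to 9.66 in knockout livers. Above the highest control lay 6 of 10 knockout livers, while knockout replicates 2 and 5 were under their run's control mean. The difference was 1.54 ± 0.59 (SE; adjusted p = 0.12), with 1.40 in run 1 and 1.65 in run 2, and without knockout replicate 5 it was 1.86 and passed (adjusted p = 0.037). Sult1d1, a catecholamine and phenol sulfotransferase chosen here after its value was seen, had a difference of -0.25 ± 0.08 at the edge of the threshold (adjusted p = 0.051). Sult1a1, the main phenol sulfotransferase, had a difference of 0.26 (95% interval -7.84e-04 to 0.52).

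Glucuronosyltransferases use UDP-glucuronic acid to tag bilirubin, steroids and phenols. Of 4 Ugt1, 10 Ugt2 and 2 Ugt3 members, 1 Ugt1 and 1 Ugt2 gene fell. Of the 2 Ugt3 genes none passed in limma and none had an unadjusted p under 0.05, with Ugt3a2 at -0.14 ± 0.09, and at -0.079 without knockout replicate 4. Ugt1a6b, of the phenol-conjugating Ugt1a6 pair, ran from 8.14 over a median of 8.94 to 9.13 in controls and from 7.80 over 8.38 to 8.57 in knockout livers. The lowest controls, replicates 3 and 4, lay among the knockout livers, and the other 9 controls lay above the highest knockout liver. It fell by 0.49 ± 0.11 (SE; adjusted p = 0.0096), with -0.42 in run 1 and -0.54 in run 2. Ugt1a1, the bilirubin glucuronosyltransferase, had a difference of -0.29 (95% interval -0.56 to -0.03; adjusted p = 0.17).

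Ugt1a9, which conjugates bulky phenols, had a positive difference of 1.003 ± 0.38 (SE) and missed the threshold (limma, adjusted p = 0.11). It ran from 5.27 over 7.63 to 8.78 in controls and from 7.29 over 8.79 to 9.30 in knockout livers, with 5 of 10 knockout livers above the highest control. The difference was 1.53 in run 1 and 0.61 in run 2.

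Ugt2b36, a steroid and drug glucuronosyltransferase, ran from 10.67 over a median of 10.88 to 11.42 in controls and from 10.36 over 10.65 to 10.93 in knockout livers. The ranges overlapped, and all 10 knockout livers were under their run's control mean. It fell by 0.27 ± 0.07 (SE; adjusted p = 0.021), with -0.29 in run 1 and -0.25 in run 2. The call was lost without control replicates 3 and 4 and knockout replicate 6 (difference -0.18, adjusted p = 0.059) and in run 2 alone. Of the other 9 Ugt2 genes, 5 had an unadjusted p under 0.05 and missed the threshold after adjustment, among them Ugt2b5 at -0.31 and Ugt2a3 at -0.27 (adjusted p = 0.067 and 0.065). Ugt2b37 had the widest spread, from 4.37 to 9.54 among knockout and from 4.96 to 9.51 among control livers, and its difference of 0.33 ± 0.53 was negative in run 1 (-0.42) and positive in run 2 (0.89), and ran from 0.10 without control replicate 10 to 0.66 without knockout replicate 3.

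**Figure D4:**
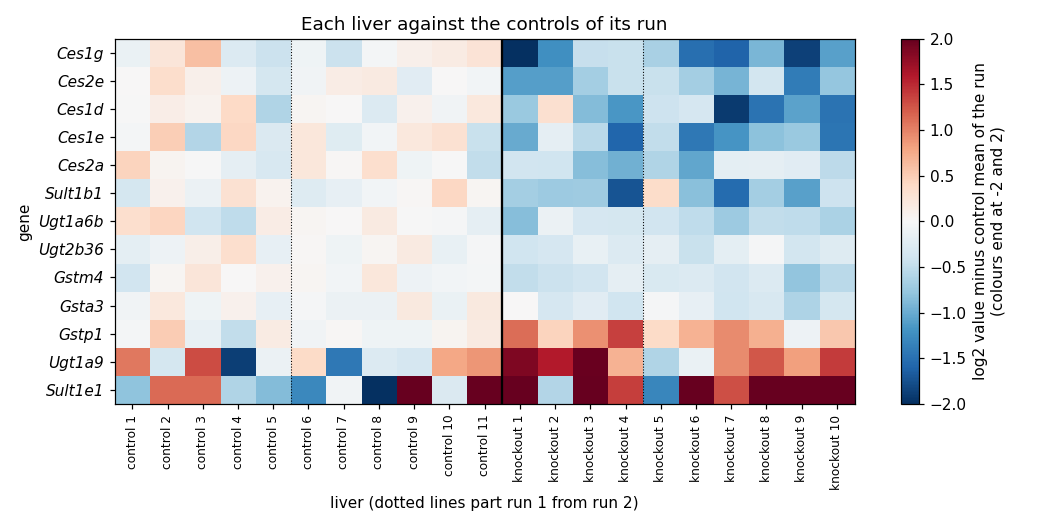
Log2 deviation from the controls' mean in each run for 13 genes (rows) in each of the 21 livers (columns), blue for below and red for above that mean, colours ending at -2 and 2. Ces1g, Ces1e, Ces2e, Ces2a, Ugt1a6b, Ugt2b36 and Gstm4 are below the control mean of their run in all 10 knockout livers, while Sult1e1 ranges widely in both groups.

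Glutathione S-transferases join glutathione to reactive electrophiles such as lipid aldehydes and drug metabolites. Of 23 members 2 fell and 1 rose. Gstp1, the pi class enzyme, ran from 8.27 over a median of 9.29 to 9.56 in controls and from 9.22 over 9.90 to 10.33 in knockout livers. Above the highest control lay 8 of 10 knockout livers, and knockout replicate 9 was the 1 below the control mean of its run. Gstp1 rose by 0.71 ± 0.14 (SE; adjusted p = 0.0042), 1.64-fold, with 0.96 in run 1 and 0.53 in run 2. Gstp3, the other pi class member measured, had a difference of 0.13 (95% interval -0.35 to 0.62), with 0.75 in run 1 and -0.32 in run 2.

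Gstm4, of the mu class, ran from 5.55 over 6.14 to 6.42 in controls and from 5.42 over 5.70 to 5.93 in knockout livers. All controls but replicate 1 lay above the highest knockout liver. It fell by 0.40 ± 0.08 (SE; adjusted p = 0.0037), with -0.37 in run 1 and -0.43 in run 2. The other 6 mu class genes did not pass, and their differences ran from -0.25 for Gstm2 to 0.21 for Gstm3, whose values among knockout livers spread from 7.23 to 10.13.

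Gsta3, an alpha class enzyme that detoxifies aflatoxin epoxide in mice, ran from 9.50 over a median of 9.65 to 9.97 in controls and from 9.15 over 9.43 to 9.74 in knockout livers. In 7 of 10 knockout livers it was below the lowest control. It fell by 0.28 ± 0.07 (SE; adjusted p = 0.024), with -0.24 in run 1 and -0.31 in run 2. The fall did not pass in run 2 alone (adjusted p = 0.087). Gsta4, which conjugates hydroxynonenal, had a difference of -0.09 (95% interval -0.31 to 0.14), and Gsta2 was below the array median.

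None of the 4 theta class genes, of the 4 Gstk, Gsto and Gstz genes or of the 3 microsomal Mgst genes passed in limma over both runs, with 1, 2 and 0 of them at an unadjusted p under 0.05. Gstt3 had a difference of -0.34 ± 0.15 (SE; adjusted p = 0.20), which passed without control replicates 3 and 4 and knockout replicate 6 (-0.48, adjusted p = 0.035). Gstk1, the peroxisomal and mitochondrial kappa enzyme, had a difference of 0.26 ± 0.09 (adjusted p = 0.067), which passed without knockout replicate 5 (adjusted p = 0.048) or 6 (adjusted p = 0.021). Mgst1, the microsomal enzyme of the liver, lay between 11.84 and 12.25 in controls and between 11.90 and 12.21 in knockout livers, a difference of 0.002 (95% interval -0.12 to 0.12). Mgst3 had a difference of 0.18 ± 0.22, near 0 in run 2 (-0.034) and at 0.0043 without control replicate 4. Mgst2 had a difference of 0.06 ± 0.06 with values below the array median, and of 0.02 without knockout replicate 6.

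The number run was a second source of spread, and the rule for the members did not use it. A genotype by run term passed for none of the 63 members (8 of all rows, 0.0315%), and 5 members had an unadjusted p under 0.05 (7.94%, against 10.2% of all rows). All 11 called genes had the same sign in both runs, as did 40 of the 63 members (63.5%, against 58.0% of all rows). The 11 were called from both runs together, which favours equal signs, so their agreement is not a replication. The fitted run difference itself passed for 5 members (7.94%, against 4.11% of all rows), with Gstt3 (0.93 ± 0.16, run 2 minus run 1, SE), Ces1f (0.50 ± 0.11), Gstk1 (0.38 ± 0.09) and Gstm7 (0.35 ± 0.10) higher in run 2 and Ugt2b36 (-0.24 ± 0.07) lower. Over all rows 1.93% were higher in run 2.

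**Figure D5:**
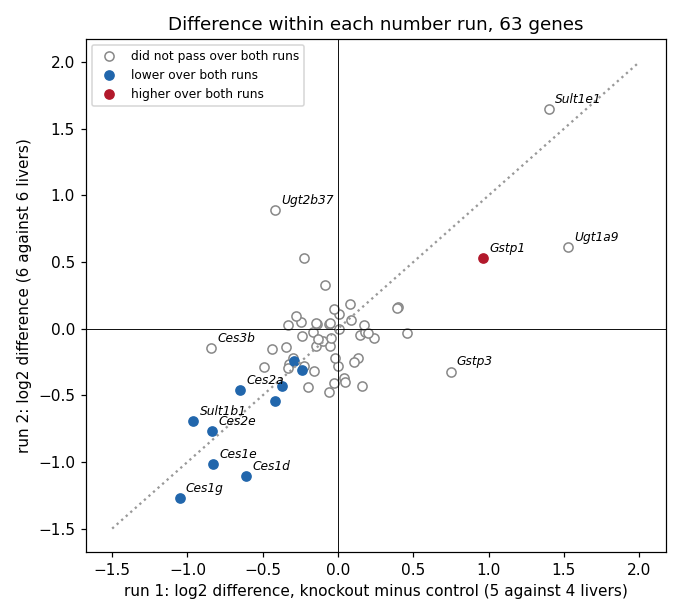
Log2 difference (knockout minus control) in run 2 (y axis) against run 1 (x axis) for the 63 genes, filled where the gene passed over both runs, with a dotted line of equal difference. The 11 filled points lie on the same side of zero in both runs, while Ugt2b37, Gstp3 and others change side. A call made over both runs favours such agreement.

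Genes that regulate or serve these enzymes were taken from lists. Together with the acute phase genes below they are called pathway genes, 86 in all with 11 higher and 10 lower. Over all rows 3.28% were higher and 4.05% lower, and 12.7% of rows over the array median passed in either direction. These shares stand beside every list count below. The lists were chosen with earlier results of these data known, so nothing is read from the counts. Of 14 measured nuclear receptors and stress sensors 3 fell and 1 rose (median -0.08). Nr1h4, which encodes the bile acid sensor FXR, fell by 0.39 ± 0.07 (SE; adjusted p = 0.0026), and Nr1i3, the drug-sensing receptor CAR, fell by 0.61 ± 0.16 (adjusted p = 0.024), with values from 8.88 to 9.62 in controls and from 8.08 to 9.50 in knockout livers. The call of Nr1i3 did not hold in run 2 alone (adjusted p = 0.091) or without control replicates 3 and 4 and knockout replicate 6 (adjusted p = 0.052). Nfe2l2, the antioxidant regulator NRF2, had a difference of 0.05 ± 0.12 and Nr1i2, the receptor PXR, of 0.30 ± 0.11, neither of which passed. The other calls were less stable, with Rxra, the shared partner of these receptors, at 0.14 ± 0.04 (adjusted p = 0.046) and Esrra, an orphan receptor, at -0.27 ± 0.07 (adjusted p = 0.030). Leaving out 1 liver ended the call of Rxra in 17 of 21 fits, all but those without control replicates 5 and 6 and knockout replicates 6 and 7 (adjusted p up to 0.084). It ended that of Esrra in 5, without control replicate 7, 8 or 9 or knockout replicate 9 or 10 (up to 0.060). These 4 genes were chosen after their values were seen.

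Of 15 genes for cofactor supply 1 fell and 1 rose. Gclc, the catalytic subunit of the first step of glutathione synthesis, fell by 0.40 ± 0.09 (SE; adjusted p = 0.011). Gss, the second step, rose by 0.44 ± 0.13 (adjusted p = 0.037), a call lost in 10 of 21 fits that left out 1 liver (control replicates 2, 4, 8, 9 and 10 and knockout replicates 3, 7, 8, 9 and 10, adjusted p up to 0.071). Ugdh, which makes UDP-glucuronic acid, and Papss2, which makes PAPS, had differences of -0.29 ± 0.14 and -0.04 ± 0.08 and did not pass, chosen after their values were seen.

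Of 18 other conjugating and hydrolytic enzymes 2 fell and 2 rose. Inmt, an N-methyltransferase, fell by 1.19 ± 0.17 (SE; adjusted p = 6.03e-04), below the control mean of its run in 10 of 10 knockout livers. Ggt5, a glutathione conjugate peptidase, rose by 0.37 ± 0.09 (adjusted p = 0.021), at values of 3.28 to 4.05 in controls that are near the array median. Nnmt, which methylates nicotinamide, rose by 0.68 ± 0.18 (adjusted p = 0.023). Its call was lost in 4 of 31 alternatives, among them run 1 alone (adjusted p = 0.18) and run 2 alone (adjusted p = 0.26). Aadac, an ester hydrolase of the endoplasmic reticulum, had a difference of -0.36 ± 0.10 (adjusted p = 0.036), and its call was lost in 10 of 21 fits that left out 1 liver (control replicates 2, 6, 7, 8 and 9 and knockout replicates 2, 6, 8, 9 and 10, adjusted p up to 0.067).

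Of 14 transporters 3 fell and 1 rose. The rise had the largest size in the list, with Abcb1b, a drug efflux pump, higher by 1.35 ± 0.31 (SE; adjusted p = 0.012), 2.55-fold. It ran from 3.76 over a median of 4.37 to 5.34 in controls and from 4.54 over 5.74 to 7.29 in knockout livers, and 6 of 10 knockout livers lay above the highest control. The difference was 0.43 in run 1, where it did not pass, and 2.03 in run 2. The falls were Abcg2, an exporter of sulfate and glucuronide conjugates, at -0.70 ± 0.13 (adjusted p = 0.0039), Slco1b2, a hepatic uptake carrier of conjugates, at -0.26 ± 0.06 (adjusted p = 0.011), and Abcc2, the canalicular exporter of conjugates, at -0.29 ± 0.07 (adjusted p = 0.014). Neither Abcg2 nor Slco1b2 passed in run 2 alone (adjusted p = 0.16 and 0.13). Nnmt, Aadac, Abcb1b and Abcc2 were chosen after their values were seen. Of 14 antioxidant response genes 2 fell and 1 rose, with a median of 0.002. Hmox1, the heme oxygenase, rose by 1.12 ± 0.15 (adjusted p = 2.81e-04) and Me1, the malic enzyme, fell by 0.96 ± 0.15 (adjusted p = 0.0013).

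Some markers of other cells moved with the genotype beside the enzymes, mainly those of leukocytes and of stellate cells and fibroblasts. Their part in the enzyme differences was not tested. Of 9 measured hepatocyte markers none passed in limma, with 2 at an unadjusted p under 0.05, and their mean log2 value per liver ran from 13.12 to 13.27 in controls and from 13.11 to 13.25 in knockout livers. These markers lie near the top of the scale, whose highest value on any array was 13.81, and Alb had both its lowest and its median at 13.75 in each group. A difference in hepatocyte content could therefore go unseen in them. Leukocyte markers rose in 3 of 6, with means per liver from 4.38 to 6.27 in controls and from 5.34 to 7.33 in knockout livers. All 6 were higher at an unadjusted p under 0.05 (limma). The 6.27 came from control replicate 3, and the next highest control was 5.20, below every knockout liver. Stellate and fibroblast markers rose in 5 of 8, from 6.57 to 7.31 against 7.14 to 7.63. Acute phase genes, which hepatocytes switch on in inflammation, rose in 5 of 14. Their means ran from 9.56 to 11.43 in controls and from 10.34 to 12.13 in knockout livers. The 11.43 was also control replicate 3, and the next highest control was 10.35. Orm2, one of the 5, lost its call without knockout replicate 3 (adjusted p = 0.057) or 4 (adjusted p = 0.051). Lbp rose by 0.68 ± 0.12 (SE; adjusted p = 0.0024) and Hpx by 0.41 ± 0.08 (adjusted p = 0.0036). Of 8 endothelial markers 1 rose and 1 fell, of 6 cholangiocyte and 4 erythroid markers none passed in limma (1 each at an unadjusted p under 0.05), and of 9 markers of intestine, kidney and pancreas 1 rose, Vil1, whose control mean of 3.52 was below the array median and whose call was lost without control replicate 8 or knockout replicate 8 or 10 (adjusted p up to 0.056). Of 12 measured hepatic genes with a known sex bias 1 fell, Sult2a1 (-0.85 ± 0.22, adjusted p = 0.024), and 1 rose, Cyp17a1 (0.36 ± 0.11, adjusted p = 0.049). The call of Cyp17a1 was lost in 14 of 21 fits that left out 1 liver, all but those without control replicates 1, 3, 7 and 11 and knockout replicates 2, 5 and 6 (adjusted p up to 0.087), and that of Sult2a1 in run 2 alone (adjusted p = 0.088). Means per liver of the 12 ran from 5.34 to 7.56 in controls and from 4.98 to 7.18 in knockout livers. The defining cholangiocyte markers Krt19 and Epcam had control means of 3.13 and 3.22, below the array median.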

How the data were processed

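Total RNA of 21 whole livers was measured on Affymetrix arrays, 1 per liver, as the labels' protocols say. The authors' deposited values are log2 expression after RMA (per the submitters' processing notes), with 1 row per Entrez gene. RMA forces all arrays to 1 distribution, so differences are relative to it, and low values can lie near background. Array number limits the precision. Symbols came from the platform annotation (24705 of 25428 rows), and all 63 members matched RefSeq.

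Genotype was tested on all 25428 rows with limma 3.58.1 in R 4.3.3 (genotype and run as terms, Benjamini-Hochberg adjustment, threshold 0.05). Differences are knockout minus control, with its standard error and 95% interval. Labels call the samples biological replicates, taken as 1 animal each. The members and lists were chosen with earlier results of these data known. Named members were, per family, up to 4 with the lowest adjusted p that passed, or the lowest p, and the largest difference; others were chosen after their values were seen. Lists gave up to 2 genes each. Correlations used 100000 permutations. Of 172 listed symbols 151 were measured. The fit was tested on simulated data. Protein sequences are not used here. Alternatives were no run term, each run alone, a replicate block, a second quantile normalization, median centring, a filter at the array median, an intensity trend with robust prior, array weights, leaving out each array, and, added after seeing the data, leaving out 3 arrays.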

Additional observations from a re-analysis of the deposited data

Results flagged for a closer look

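Among the 20 named members, 2 had 1 knockout liver standing apart from the other 9 by Dixon's ratio, a rule that chance alone meets in about 1 of 20 groups. Ugt1a6b was 7.80 in knockout replicate 1, while the other 9 ran from 8.22 to 8.57, and leaving it out gave a difference of -0.44 (limma, adjusted p = 0.018). Mgst2 was 3.77 in knockout replicate 6, against 3.23 to 3.49 in the others, and without that liver its difference was 0.02. The control group of 11 was not examined this way.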

How the results depend on the processing

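The 11 called members kept their direction under all 31 alternatives and stayed past the threshold in each of the 21 fits that left out 1 array. In run 1 alone, with 9 livers, 0 members were higher and 0 lower in limma (4 and 11 at an unadjusted p under 0.05, and 3 of all rows past the threshold), and 0 of the 86 pathway genes (regulators, cofactor supply, other enzymes, transporters, antioxidant and acute phase genes) were higher and 1 lower (10 and 12 unadjusted). In run 2 alone 6 pathway genes were lower, against 10 over both runs. With the replicate number as a block, 2 members were higher and 9 lower, since Ugt1a9 passed (adjusted p = 0.033) and Gsta3 did not (0.065). Same-numbered samples of the 2 groups correlated from -0.05 to 0.17 in their deviations, and 1 of 10 knockout samples correlated best with its own number. These values showed no pairing by number and cannot exclude a weak one. Without the 3 arrays least like their group 2 members were higher and 13 lower. With rows over the array median only, 9 members differed between runs, against 5. Leaving out 1 array gave 1 to 3 higher members (3 without knockout replicate 5, which added Gstk1 and Sult1e1, and 2 without knockout replicate 6, which added Gstk1), 10 to 13 lower members, 8 to 12 higher and 8 to 12 lower pathway genes, and 3 to 7 members that differed between runs. It was 3 without any 1 of control replicates 3, 4, 7, 8, 10 and 11 or knockout replicates 2, 5 and 10. Among named genes, the sign turned for Ugt2b37 in run 1 alone (-0.42) and for Mgst3 in run 2 alone (-0.034) and without the 3 arrays (-4.27e-04), neither of which passed in any fit. The causes were not tested. Signal near background limits the 16 dim members.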
